A study of Mus musculus with 16 samples.

Results

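The genes described here are Il1rap and 9 partners of the interleukin-1 (IL1) signaling axis, namely Il1r1, Il1rapl1, Il1a, Il1b, Il1rn, Il18, Myd88, Irak1 and Irak4. They were chosen by name because the knockout of the study removes AcPb, an isoform made by Il1rap. All 10 were among the 24421 genes of the deposited tables. Messenger RNA of the somatosensory cortex was sequenced from mice labelled male and aged 2 to 3 months, kept on 12 h of light and 12 h of dark, and the undisturbed groups were C57BL/6 wild-type mice (CTL-WT) and AcPb-/- mice (CTL-AcPbKO), both euthanized at ZT4, that is, 4 h after lights on. The other groups, SD-WT and SD-AcPbKO, carried the same genotypes, had sleep disrupted from ZT20 until ZT4 by gentle handling (SD), and were collected at the same hour. Each group held 3 libraries in the tables, and a further 4 labelled samples were not analysed here. AcPb-/- mice were bred in house as homozygotes for 5 to 7 generations, and the records of the wild-type samples carry the same entry of 5 to 7 generations. The knockout is present in every cell from conception, and nothing in the labels says whether wild-type mice were littermates. The labels count as many mice as samples in each group, without naming the animal of each library, so p-values measure the spread between these samples.

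IL1 signals through a membrane complex in which the ligand-binding receptor, made by Il1r1, recruits the accessory protein AcP, made by Il1rap. The intracellular TIR domains of this pair gather the adaptor MyD88 and the kinases IRAK4 and IRAK1, and NF-kappa-B and MAP kinase pathways follow. In brain, neurons make AcPb, a form of the accessory protein with a different end to its intracellular part, and IL1 beta is a long-known promoter of non-rapid eye movement sleep.

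Il1rap lies on mouse chromosome 16, positions 26581704 to 26730117 of GRCm38 (mm10), plus strand (ENSMUSG00000022514.14). Its GENCODE annotation lists 4 coding transcripts. Il1rap-201 encodes 570 residues and Il1rap-202 encodes 685, and they share 9 coding exons with 1345 coding bases. They part at the last coding exon, at 26714701 to 26715065 in Il1rap-201 and at 26722356 to 26723065 in Il1rap-202. Il1rap-203 ends in the downstream exon as well (640 residues), while Il1rap-206 is short (360 residues, last coding exon at 26701088 to 26701265). The sources used here do not name the transcript that stands for AcPb. The sequences below show the switch, with the last 24 bases of the shared exon in lower case and the first 96 bases of each alternative last coding exon in capitals.
Il1rap-201, chr16:26714701-26714796 for the capitals, plus strand: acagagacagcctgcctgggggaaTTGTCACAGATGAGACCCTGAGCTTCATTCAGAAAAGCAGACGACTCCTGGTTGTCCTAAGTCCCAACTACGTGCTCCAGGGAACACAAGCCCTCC
Il1rap-202, chr16:26722356-26722451 for the capitals, plus strand: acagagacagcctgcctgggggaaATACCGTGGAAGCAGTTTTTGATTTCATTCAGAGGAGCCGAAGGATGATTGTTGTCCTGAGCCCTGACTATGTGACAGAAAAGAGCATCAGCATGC

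Without gaps, 48 of the 96 printed positions were identical between the 2 alternative exons. The deposited tables hold a single value per gene and library, in which reads from all transcripts are added. Of the 11360 exon bases of Il1rap, 49.9% lie from the last coding exon of Il1rap-202 onwards, and 26.8% lie in the last exon of Il1rap-201. A read total for Il1rap therefore cannot show which last exon was used, and it is no check of the knockout labels.

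Il1rap was detected at depth in every library, with 933 to 2946 reads, and the gene total was much the same in both genotypes. On a scale shared by the 12 libraries, normalized counts were 1496, 1476 and 1519.9 in CTL-WT and 1588, 1647 and 1515 in CTL-AcPbKO. After SD they were 1824, 1920.4 and 1729 in SD-WT and 2062, 1928 and 1923 in SD-AcPbKO. All 6 SD libraries lay above all 6 undisturbed libraries, and within each state the genotypes differed by less than the SD groups differed from their controls.

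Totals on genes ran from 26504840 to 41615582 reads in undisturbed libraries and from 58770286 to 71857505 after SD, so depth rose with SD. Xist, the RNA of the inactive X chromosome, had between 25352 and 39358 reads in 4 undisturbed libraries (CTL-WT replicates 02 and 03, CTL-AcPbKO replicates 04 and 05) and at most 13 in the other 8, although the labels give male mice. Reads of Uty, Kdm5d, Ddx3y and Eif2s3y, all on the Y chromosome, summed to at most 2 in those 4 libraries and to between 5105 and 10593 in the other 8. All SD libraries were thus of the second kind, and the undisturbed groups were mixed. SD-AcPbKO replicate 04 stood apart by its choroid plexus markers (summed normalized count of 17597 over Ttr, Kl, Folr1 and Kcnj13, against 286 to 548 in the other 11) and neutrophil markers (776 over S100a8, S100a9, Ngp and Camp, against 21.1 to 122). The neuronal markers Snap25, Rbfox3, Syt1, Slc17a7 and Gad1 summed to between 332545 and 387372 in all libraries, but they did not move alike. Snap25 was 161115 to 194341 after SD and 124975 to 158631 in undisturbed libraries, and Syt1 was 89092 to 93957 and 96436 to 104901. In each genotype 1 of the 5 was higher and 2 were lower with SD without overlap, and 0 passed an adjusted p of 0.05 in limma. Groups did not overlap for 40.2% and 42.3% of all genes. The hemoglobin genes Hba-a1, Hba-a2, Hbb-bs and Hbb-bt were at 0 throughout. The part of depth, of these libraries and of cell makeup in the results was not tested, apart from the alternatives given beside them.

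Members differed widely in level. Compared per kb of exon, on the scale shared by the 12 libraries, Il18 was the highest (mean of 756, range 666 to 899) and Irak1 was next (580.4, range 524 to 621). Il1rap followed with 151 (130 to 182), and its range overlapped that of Myd88 (127, range 92.5 to 182), the adaptor. Il1r1 (63.9, range 40.6 to 94.3) overlapped its neighbors Myd88 and Il1rapl1 (53.4, range 44.1 to 65.4). Below them, Il1a (15.5, range 9.28 to 20.8), Irak4 (15.0, range 11.2 to 18.9) and Il1b (7.85, range 3.52 to 11.9) overlapped one another. Il1rn, which encodes the receptor antagonist, had 9 reads in all 12 libraries together and was at 0 in 8 of them.

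**Figure D1:**
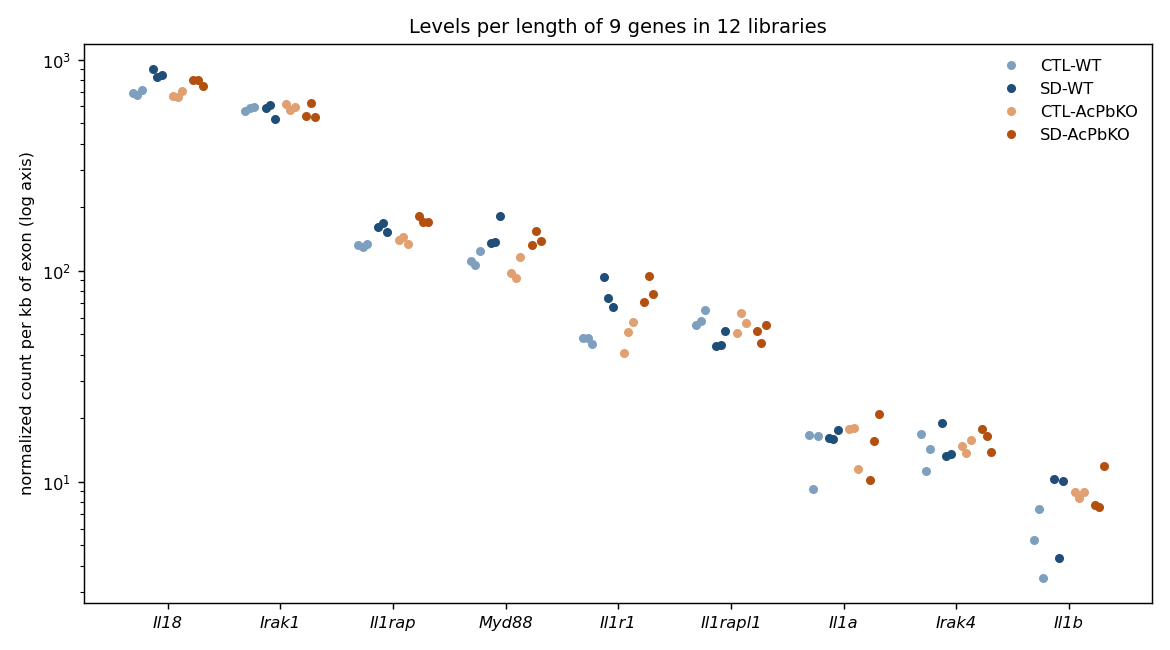
Normalized count per kb of exon (log axis) of 9 genes in each of the 12 libraries, colored by group. Points are libraries, and Il1rn is left out since 8 libraries held no read of it. Il18 and Irak1 sit above 500, while Il1a, Irak4 and Il1b sit at or below 20.8.

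Messenger RNA of both IL1 receptor subunits, of the adaptor and of IL18 was higher after SD in wild-type mice. Of the 10 genes, 5 passed an adjusted p of 0.05 in limma, 4 upregulated (Il1r1, Il1rap, Il18, Myd88) and 1 downregulated (Il1rapl1). That count was 1 without CTL-WT replicate 02, 2 without SD-WT replicate 01 or 02, 3 without CTL-WT replicate 03 and 3 with a term for the libraries with Xist reads. Of all 20417 genes tested, 25.4% passed, 13.2% upregulated and 12.2% downregulated. The same 5 genes of the axis were the ones whose 2 groups of libraries did not overlap, as was so for 40.2% of all genes. The median log2 fold change was 0.27 over the 10 genes and -0.0039 over all genes. In AcPb-/- mice 4 of 10 were upregulated (Il1r1, Il1rap, Myd88, Il1rn), none was downregulated, and 27.4% of 20574 genes passed (14.1% upregulated). That count of 4 was 2 without CTL-AcPbKO replicate 04, SD-AcPbKO replicate 03 or SD-AcPbKO replicate 04, and 2 after thinning to equal depth. Groups did not overlap for 5 of the 10 there, these 4 and Il18, and for 42.3% of all genes. The median of the 10 was 0.16. Many genes moved with SD, so these counts describe the axis without setting it apart.

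**Figure D2:**
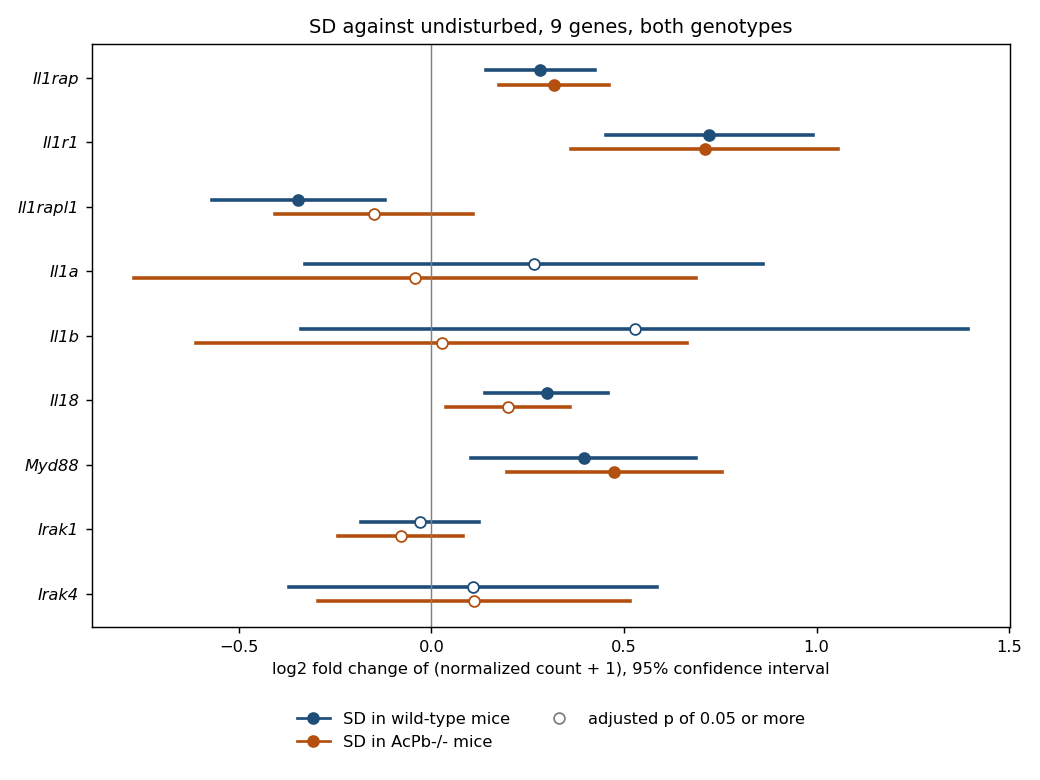
Log2 fold change of SD against undisturbed libraries for 9 genes in wild-type and AcPb-/- mice, with 95% confidence intervals. Filled points passed an adjusted p of 0.05, and Il1rn is left out because its control groups held no read. Il1rap, Il1r1 and Myd88 lie above 0 in both genotypes.

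The accessory protein gene, Il1rap, had normalized counts of 1541, 1519 and 1568 in CTL-WT and of 1877, 1981 and 1779 in SD-WT, on the scale of that table. Every SD library was above every control. The fold change was 1.22 (95% confidence interval 1.10 to 1.34), or 0.28 ± 0.064 (SE, n = 3 per group) on the log2(normalized count + 1) scale, with an adjusted p of 0.010 in limma. That call missed the threshold when CTL-WT replicate 02 (adjusted p = 0.0528) or SD-WT replicate 02 (adjusted p = 0.0538) was left out.

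Il1rap in AcPb-/- mice had 1540.1, 1599.7 and 1471 in CTL-AcPbKO and 2008, 1872 and 1870.3 in SD-AcPbKO. The groups did not overlap, as in wild-type mice. The fold change was 1.25 (interval 1.13 to 1.38, adjusted p = 0.0069 in limma), and it stayed past the threshold with each library left out in turn (adjusted p of 0.0119 to 0.0312). With a term for the libraries with Xist reads, the log2 fold changes were 0.28 (adjusted p = 0.0169) in wild-type and 0.31 (adjusted p = 0.0072) in AcPb-/- mice.

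Il1r1, the receptor that binds IL1 alpha and IL1 beta, showed the largest change among the 5 called genes in wild-type mice. Its normalized counts were 313, 315 and 296 in CTL-WT and 608, 488 and 442 in SD-WT. The SD libraries were all higher and more spread than the controls. The fold change was 1.65 (interval 1.37 to 1.99, adjusted p = 0.0027 in limma).

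Counts of Il1r1 in AcPb-/- mice were 251, 315 and 353 in controls and 438, 583 and 479 after SD. Again the groups did not overlap, although the lowest SD library exceeded the highest control by less than in wild-type mice. The fold change was 1.63 (interval 1.29 to 2.08, adjusted p = 0.0102), and in both genotypes the call held in 6 of 6 fits with a library left out.

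Because Il1r1 rose more than Il1rap, the balance of the 2 receptor genes shifted. Per kb of exon, Il1rap exceeded Il1r1 by a ratio of 2.71 to 2.96 in CTL-WT and 1.73 to 2.27 in SD-WT. The ratio in AcPb-/- mice was 2.33 to 3.44 in controls and 1.80 to 2.57 after SD, and there the ranges overlapped. These ratios were formed after the values had been seen and carry no test. They count all exons of both genes, including parts outside the membrane form.

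Il1r1 is well known from endothelial cells. Of 4 endothelial markers, Flt1 and Pecam1 were upregulated in both genotypes (log2 fold changes of 0.39 and 0.40 in wild-type, 0.41 and 0.28 in AcPb-/- mice) and Cldn5 was downregulated (-0.38 and -0.77). Their summed normalized count with Kdr was 7071 to 7720 in the 6 controls and 7208 to 9361 after SD. In bulk tissue, more cells of a type and more RNA per cell cannot be told apart, and the part of endothelium in the Il1r1 result was not tested.

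Il1rapl1 encodes a relative of the accessory protein on the X chromosome that organizes synapses and is linked to intellectual disability. It was downregulated in wild-type mice, from 533, 554 and 631 in CTL-WT to 424, 431 and 497 in SD-WT. The groups were separate, and the control nearest to the SD libraries, replicate 01, was the one with few Xist reads. The log2 fold change was -0.34 ± 0.10 (SE, adjusted p = 0.0308 in limma), or 0.787-fold (interval 0.674 to 0.920).

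That call did not hold in 4 of 6 fits with a library left out (highest adjusted p = 0.119) nor with a term for the libraries with Xist reads (log2 fold change -0.22, adjusted p = 0.241). In AcPb-/- mice Il1rapl1 had 457, 569 and 512 in controls and 469, 413 and 504 after SD. Those groups overlapped, with a log2 fold change of -0.15 (interval -0.41 to 0.11, adjusted p = 0.382). Per kb, Il1rap exceeded Il1rapl1 by 2.04 to 2.38 in CTL-WT and by 2.95 to 3.78 in SD-WT.

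**Figure D3:**
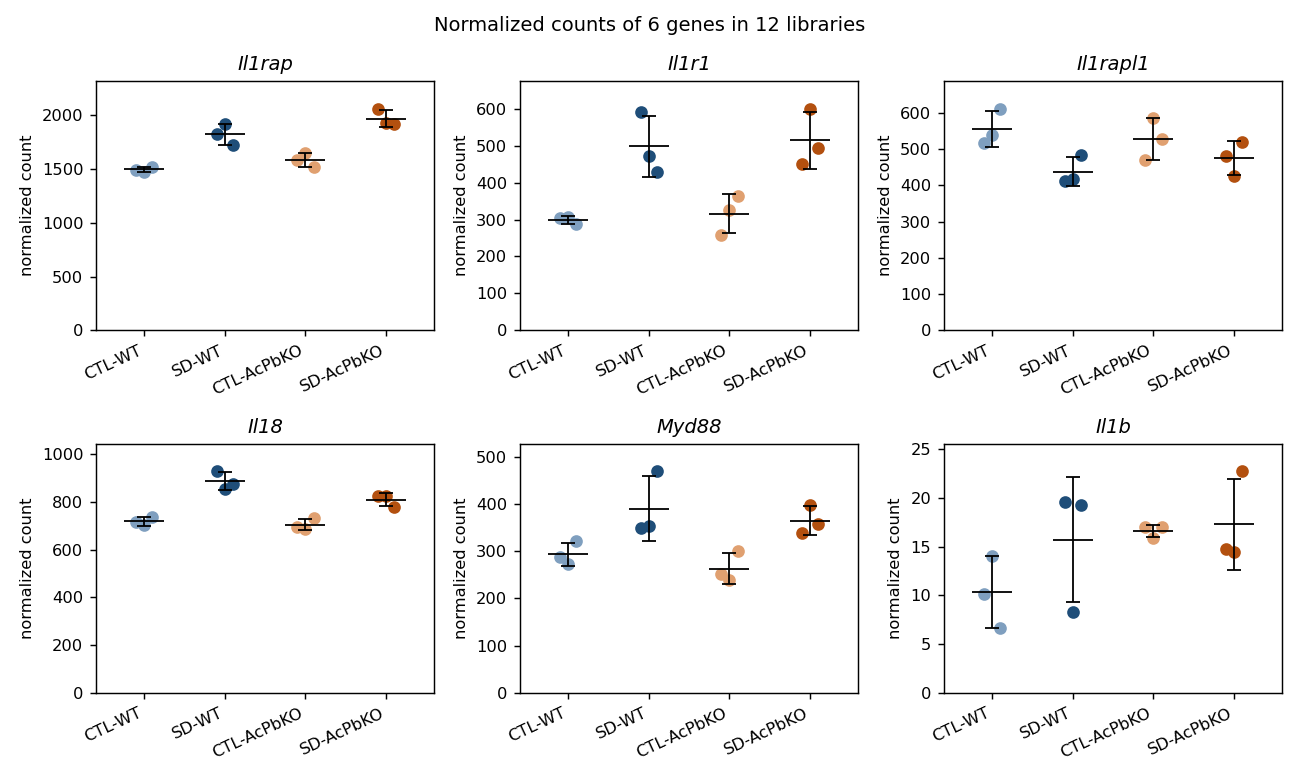
Normalized counts of 6 genes in the 12 libraries, on 1 scale for all libraries, with the group mean and SD (n = 3) as bars. Each axis starts at 0. Il1rap and Il1r1 show every SD library above every undisturbed one, while Il1b overlaps between groups after SD.

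Among the ligands, Il18 was the only one that passed the test in wild-type mice. IL18 is made as an inactive precursor that caspase-1 cleaves, and it signals through its own receptor pair and MyD88. Il18 had normalized counts of 737, 723 and 762 in CTL-WT and 954, 880 and 902 in SD-WT. All SD libraries were higher, with a fold change of 1.23 (interval 1.10 to 1.37, adjusted p = 0.0134 in limma), but without CTL-WT replicate 02 or SD-WT replicate 01 the adjusted p was 0.0645 or 0.0694.

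Il18 in AcPb-/- mice had 676, 667 and 710.0 in controls and 801, 801 and 755 after SD. The groups were separate, yet the fold change of 1.15 (interval 1.03 to 1.28) missed the threshold (adjusted p = 0.0680). With all 4 groups in a joint fit its adjusted p was 0.0281. Thus the test of 1 genotype passed and that of the other did not, while the difference between them was not past the threshold (log2 difference -0.10, interval -0.29 to 0.086, adjusted p = 0.986).

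Il1a and Il1b, the genes of the ligands of IL1R1, were scarce. Il1a had between 13 and 58 reads per library and Il1b between 6 and 32. Normalized counts of Il1b were 10.4, 14.5 and 6.92 in CTL-WT and 20.1, 8.56 and 19.8 in SD-WT. An SD library lay inside the range of the controls, and the log2 fold change was 0.53 (interval -0.34 to 1.39, adjusted p = 0.364 in limma).

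Il1b in AcPb-/- mice had 16.5, 15.4 and 16.5 in controls and 14.3, 13.98 and 22.1 after SD. The groups overlapped, and the log2 fold change was 0.027 (interval -0.61 to 0.66, adjusted p = 0.952). Il1a was 33.9, 18.8 and 33.4 in CTL-WT and 32.6, 32.5 and 35.8 in SD-WT, a log2 fold change of 0.27 (interval -0.33 to 0.86, adjusted p = 0.519). That of Il1a in AcPb-/- mice was -0.043 (interval -0.77 to 0.69, adjusted p = 0.932). At these counts the intervals are wide, and a change of Il1a or Il1b inside them was not detectable at this depth.

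Il1rn, the receptor antagonist gene, had 0 reads in all 6 undisturbed libraries. After SD it had 1, 0 and 0 reads in SD-WT and 1, 2 and 5 in SD-AcPbKO, the 5 reads being in replicate 04, the library with the raised choroid plexus and neutrophil markers. In AcPb-/- mice the limma test of SD gave an adjusted p of 0.0488. Against a floor of 3 reads over the control group (normalized count of 1.43), the 8 pooled SD-AcPbKO reads (1.84) were 1.29-fold higher. SD-AcPbKO replicates 02 and 03 (0.754 and 1.27) lay below that floor, so the ratio rests on replicate 04. The adjusted p was 0.0551 to 0.188 with a library left out, 0.145 with edgeR, 0.118 with a pseudocount of 10 and 0.0531 after thinning to equal depth. In wild-type mice the adjusted p was 0.716. The single read there allows no fold change.

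Of the cytoplasmic members, Myd88 was upregulated in both genotypes and the IRAK kinases did not pass the test. Myd88 encodes the adaptor shared by the IL1, IL18 and most Toll-like receptors. It had 296, 281 and 331 in CTL-WT and 358, 364 and 482 in SD-WT. The SD libraries were all higher, with replicate 04 well above the others.

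The fold change of Myd88 in wild-type mice was 1.32 (interval 1.07 to 1.61) with an adjusted p of 0.0499 in limma, at the edge of the threshold. No fit with a library left out kept that call (adjusted p of 0.0505 to 0.165), nor did the Xist term (adjusted p = 0.0809), thinning (0.0649) or a pseudocount of 10 (0.0678). Myd88 in AcPb-/- mice had 244, 231 and 291 in controls and 330.2, 387 and 347 after SD. These groups were separate too, with a fold change of 1.39 (interval 1.15 to 1.69, adjusted p = 0.0213). This call was lost in 3 of 6 fits with a library left out (without CTL-AcPbKO replicate 04, SD-AcPbKO replicate 03 or 04, highest adjusted p = 0.0791) and after thinning (adjusted p = 0.158). As a share of its exon bases, 11.3% of Myd88 overlaps Acaa1a on the other strand, and the strand setting of the read counter is not given in the sources used here.

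Irak1, the kinase that leaves the receptor to activate TRAF6, was abundant and moved little. Its normalized counts were 2774, 2849 and 2908 in CTL-WT and 2861, 2977 and 2543 in SD-WT. The groups overlapped, and the fold change was 0.980 (interval 0.882 to 1.09, adjusted p = 0.797). Irak1 in AcPb-/- mice was 0.947-fold (interval 0.846 to 1.06, adjusted p = 0.464). Irak4, the kinase upstream of IRAK1, had fold changes of 1.08 in both genotypes, with intervals of 0.774 to 1.5 and 0.816 to 1.43 (adjusted p of 0.749 and 0.683).

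Il1rap, Il1r1 and Myd88 were the genes that passed the test in the same direction in both genotypes, so their RefSeq promoters (GRCm38.p6, 250 bases before to 50 bases after the start, sense strand) are shown. Capitals mark matches on either strand to a CCAAT box (CCAAT, in 37.4% of 32851 mouse promoters of this length) or a TATA box (TATAAA, in 13.6%). Il1r1 has 2 starts here. The Myd88 window lies inside the gene as GENCODE annotates it (119335934 to 119341411, minus strand), away from its upstream end at 119341411.
Il1rap, chr16:26581455-26581754, plus strand: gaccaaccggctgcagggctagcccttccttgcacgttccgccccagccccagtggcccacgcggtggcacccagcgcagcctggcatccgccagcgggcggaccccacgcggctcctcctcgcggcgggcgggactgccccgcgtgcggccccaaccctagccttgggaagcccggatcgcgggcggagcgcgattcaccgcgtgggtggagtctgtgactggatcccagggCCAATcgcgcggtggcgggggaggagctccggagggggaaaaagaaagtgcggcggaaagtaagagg
Il1r1, upstream start, chr1:40224830-40225129, plus strand: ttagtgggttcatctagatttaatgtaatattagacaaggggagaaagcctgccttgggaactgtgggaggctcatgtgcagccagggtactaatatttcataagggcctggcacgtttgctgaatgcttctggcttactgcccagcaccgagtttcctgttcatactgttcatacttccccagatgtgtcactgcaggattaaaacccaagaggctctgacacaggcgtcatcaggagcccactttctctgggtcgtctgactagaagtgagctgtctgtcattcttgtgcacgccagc
Il1r1, downstream start, chr1:40266336-40266635, plus strand: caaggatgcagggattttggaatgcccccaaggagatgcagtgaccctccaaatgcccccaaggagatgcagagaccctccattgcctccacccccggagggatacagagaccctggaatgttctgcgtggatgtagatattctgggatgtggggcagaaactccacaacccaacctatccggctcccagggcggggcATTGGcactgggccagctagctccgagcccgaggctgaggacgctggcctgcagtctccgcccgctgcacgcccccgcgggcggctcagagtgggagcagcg
Myd88, chr9:119339969-119340268, minus strand: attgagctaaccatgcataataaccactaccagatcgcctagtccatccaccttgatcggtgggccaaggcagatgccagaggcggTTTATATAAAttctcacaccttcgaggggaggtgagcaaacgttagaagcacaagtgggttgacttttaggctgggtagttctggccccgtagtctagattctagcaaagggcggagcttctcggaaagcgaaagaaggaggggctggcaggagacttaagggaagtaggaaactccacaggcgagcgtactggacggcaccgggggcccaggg

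The Il1rap promoter was 72.0% G and C with a CCAAT box, and the downstream Il1r1 promoter was 63.3% G and C with a CCAAT box. The upstream Il1r1 promoter (49.3% G and C) held neither motif, and the Myd88 promoter (54.0%) held TATAAA on both strands in overlapping letters. No match to an E-box (CACGTG, in 7.15% of promoters), a CRE (TGACGTCA, 1.79%) or an AP-1 site (TGAGTCA, 5.2%) was found on either strand in these 4 windows. A match is a description of letters and not a site in use.

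The comparison of genotypes asked whether loss of AcPb altered the axis. In undisturbed mice none of the 9 genes with reads passed the test, against 0.0197% of all 20273 genes (4 genes), and after SD none of 10 did, against 0.0145% of 20621 (3 genes). Without adjustment, no gene of the axis had a limma p under 0.05 in undisturbed mice, and Il1rn alone did after SD (adjusted p = 0.753). DESeq2 and edgeR on recovered reads called none of them in either state, although over all genes DESeq2 called 104 in undisturbed mice and 99 after SD.

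Il1rap itself was 1.06-fold in CTL-AcPbKO against CTL-WT (interval 0.966 to 1.16, adjusted p = 0.718 in limma) with overlapping groups. After SD the ratio was 1.08-fold (interval 0.974 to 1.20, adjusted p = 0.874), and the 3 SD-AcPbKO libraries (2822, 2642 and 2646) were all above the 3 SD-WT libraries (2500.0, 2635 and 2375), the nearest by a narrow margin. Il1rn (higher) and Il18 (lower) were the other members whose groups did not overlap there, as was so for 11.4% of all genes. Averaged over both states in the joint fit, Il1rap was 1.07-fold (interval 1.01 to 1.14, unadjusted p = 0.0336, adjusted p = 0.428), and 0 of the 10 genes passed, against 0.343% of 20978 genes.

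Il1b was 7.41, 10.3 and 4.89 in CTL-WT and 12.4, 11.6 and 12.4 in CTL-AcPbKO. The groups did not overlap, and neither did those of 14.4% of all genes. The fold change of 1.59 (interval 0.962 to 2.64) had an adjusted p of 0.620 in limma, on 24 and 34 reads in total. For the other members the undisturbed log2 differences ran from -0.16 (Myd88) to 0.17 (Il1a), and after SD, leaving out Il1rn, from -0.15 (Il1a) to 0.19 (Il1b).

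**Figure D4:**
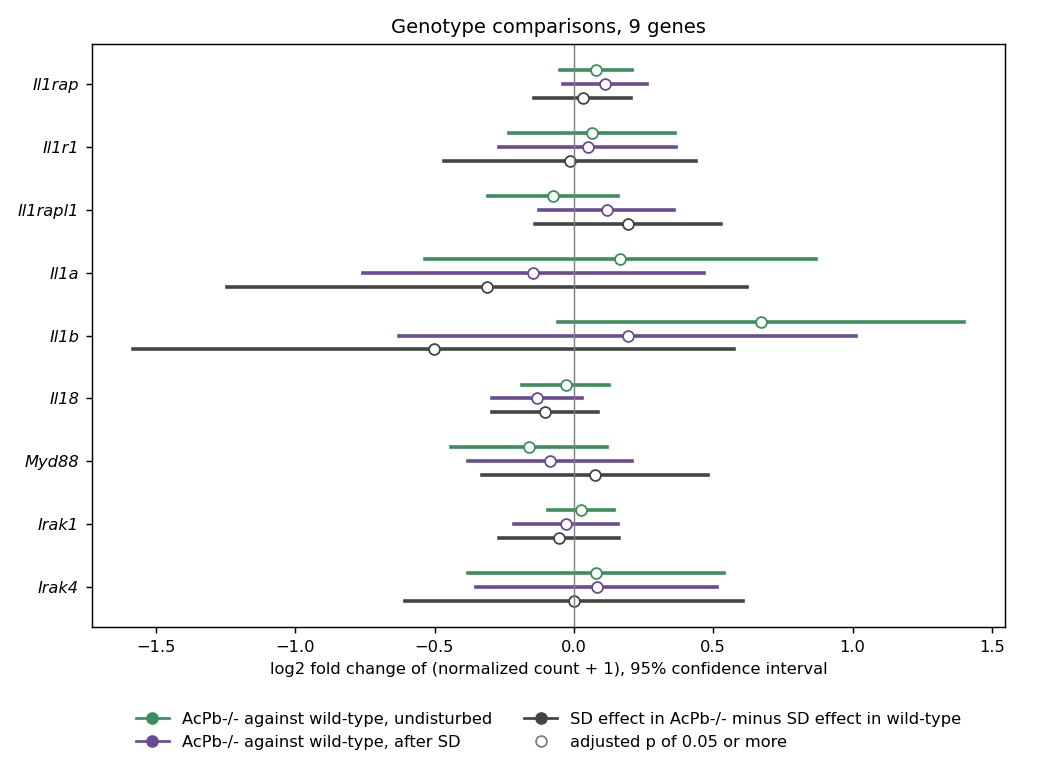
Log2 fold change of 9 genes between genotypes, undisturbed and after SD, and the difference of their SD effects, with 95% confidence intervals. Open points had an adjusted p of 0.05 or more, which holds for all of them. The intervals are narrow for Il1rap and Irak1 and wide for Il1a and Il1b.

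Whether SD acted differently in the 2 genotypes was tested as an interaction in the joint fit of 12 libraries. No gene of the axis passed, and 0 of all 20978 genes did in limma (839 had an unadjusted p under 0.05, and DESeq2 called 1). For Il1rap the SD effect in AcPb-/- minus that in wild-type mice was 0.032 on the log2 scale (interval -0.14 to 0.21, adjusted p = 0.993). For Il1r1 it was -0.015 (interval -0.47 to 0.44), for Myd88 0.076 (interval -0.33 to 0.48) and for Il1rapl1 0.19 (interval -0.14 to 0.53), each with an adjusted p of at least 0.986. These intervals leave room for moderate differences in Il1r1, Myd88 and Il1rapl1. The narrower intervals of Il1rap and Il18 (-0.29 to 0.086) also leave room, beside SD effects of 0.28 and 0.30 in wild-type mice. Wider were those of Il1b (-1.58 to 0.57), Il1a (-1.25 to 0.62) and Irak4 (-0.61 to 0.61). That of Il1rn was 0.030 to 2.29 (unadjusted p = 0.045 in limma, adjusted p = 0.986), on 9 reads in all libraries together.

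SD-AcPbKO was also compared with CTL-WT, in a table that shares its controls and its SD libraries with the tests above. There 3 of 10 genes were upregulated, against 14.1% of all genes upregulated and 27.7% called in either direction. Il1r1 was 1.71-fold (interval 1.43 to 2.05, adjusted p = 0.0015), and Il1rap was 1.32-fold (interval 1.20 to 1.44, adjusted p = 0.0016). Il1rn was the third (8 reads against 0, adjusted p = 0.0418), and its call was lost in 5 of 6 fits with a library left out (highest adjusted p = 0.175), with edgeR (0.114), with a pseudocount of 10 (0.104), with the Xist term (0.0504) and after thinning (0.0526). Myd88 (1.24-fold, adjusted p = 0.0589) and Il18 (log2 fold change 0.17, adjusted p = 0.105) did not pass.

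The wider pathway was followed in 6 lists of 64 genes. In wild-type mice 13 of 62 genes with reads passed the test (10 upregulated, 3 downregulated), and in AcPb-/- mice 10 of 62 did (7 and 3). These shares of 21.0% and 16.1% were below those of all genes given above. Neither genotype comparison called any of them in limma, while DESeq2 called Il33, an alarmin, in undisturbed mice (log2 fold change -0.42, adjusted p = 0.0495 against 0.373 in limma).

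Among other ligands and inhibitors, Il18bp, which binds and neutralizes IL18, was upregulated in wild-type mice (log2 fold change 0.50, adjusted p = 0.0039). It was the single call of 5 tested genes there, and 0 of 5 passed in AcPb-/- mice, against 25.4% and 27.4% of all genes called. Among 7 further receptors of the family, Il1rl2, the IL36 receptor, which also pairs with the accessory protein, was upregulated in both genotypes (0.71, adjusted p = 0.0404, and 1.02, adjusted p = 0.0362). Il1rl2 was the single call of these 7 in each genotype, against the same shares of all genes. Its counts were low, with group means of 29.9 in CTL-WT and 49.2 in SD-WT. That call was lost in 4 of 6 fits with a library left out in wild-type and in 5 of 6 in AcPb-/- mice.

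None of the 10 genes that process pro-IL1 beta and pro-IL18, such as Casp1, Nlrp3 and Pycard, passed in either genotype, against 25.4% and 27.4% of all genes. Their median log2 fold changes were -0.10 and -0.14, against -0.0039 and 0.014 over all genes. Without adjustment, 0 of these 10 in wild-type and 1 in AcPb-/- mice had a limma p under 0.05, and DESeq2 and edgeR called 0 in both. In the list of cytoplasmic signaling below MyD88, 6 of 19 passed in each genotype, 4 up and 2 down, a share of 31.6% against 25.4% and 27.4% of all genes. Ikbkg (NEMO), the regulatory subunit of the IKK complex, was downregulated (log2 fold changes of -0.43, adjusted p = 0.00096, and -0.45, adjusted p = 0.0022). Ikbkb, the catalytic subunit, was upregulated (0.21, adjusted p = 0.0294, and 0.22, adjusted p = 0.0130).

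Tab2 and Tab3, which tie TRAF6 to the kinase TAK1, were both upregulated with SD. Tab2 changed by 0.40 (adjusted p = 0.0029) in wild-type and 0.33 (adjusted p = 0.0236) in AcPb-/- mice, and Tab3 by 0.26 (adjusted p = 0.0175) and 0.32 (adjusted p = 0.0219). Irak2, the relative of IRAK1 that sustains the signal, changed by 0.37 (adjusted p = 0.0048) and 0.35 (adjusted p = 0.0377). Of these genes, Ikbkg kept its call in 6 of 6 fits with a library left out in both genotypes, while Tab2 and Irak2 did so in wild-type mice alone.

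Among 15 genes known to respond to IL1, 3 were upregulated in wild-type and 2 in AcPb-/- mice, and none was downregulated. These shares of 20% and 13.3% stand against 13.2% and 14.1% of all genes upregulated, and 25.4% and 27.4% called. Ptgs2, which encodes cyclooxygenase 2 and is also an activity-regulated gene of neurons, rose by 0.97 (adjusted p = 0.00029) and 1.03 (adjusted p = 0.0069) on the log2 scale. Timp1, an inhibitor of metalloproteinases, rose by 1.07 (adjusted p = 0.0157) and 1.84 (adjusted p = 0.00072). Lcn2, the iron-binding lipocalin 2, rose by 2.93 in wild-type mice (adjusted p = 0.0043, and 0.118 with a term for the libraries with Xist reads). Lcn2 is also a granule gene of neutrophils, whose 4 markers summed to between 21.1 and 29.1 in CTL-WT and between 34.9 and 107 in SD-WT, with 1 of the 4 called, and their part in the Lcn2 result was not tested.

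Among 6 synaptic partners of Il1rap and Il1rapl1, Ncs1, a calcium sensor that binds IL1RAPL1, was downregulated in both genotypes (-0.26, adjusted p = 0.0402, and -0.31, adjusted p = 0.0069). Mcf2l, which encodes a binding partner of IL1RAPL1, was upregulated in wild-type mice (0.25, adjusted p = 0.0403). Ptprd, the phosphatase that meets both proteins across the synapse, passed in SD-AcPbKO against CTL-WT (0.22, adjusted p = 0.0468) and in neither SD test within a genotype. With a library left out, 2 of 6 fits kept the call of Mcf2l and 2 of 6 that of Ncs1 in wild-type mice, 6 of 6 that of Ncs1 in AcPb-/- mice, and 1 of 6 that of Ptprd.

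**Figure D5:**
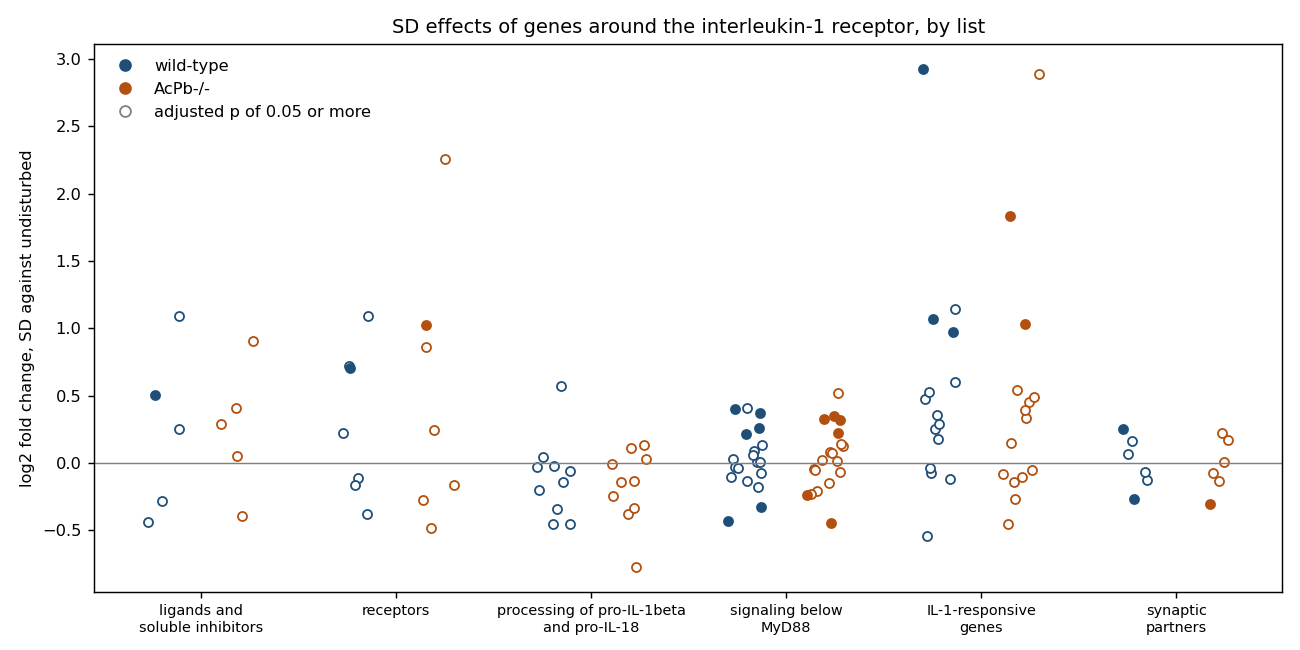
Log2 fold change of SD against undisturbed libraries for the tested genes of the 6 pathway lists, in wild-type and AcPb-/- mice. Each point is a gene, and filled points passed an adjusted p of 0.05. Filled points above and below 0 occur side by side in the list of signaling below MyD88.

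The profile of Il1rap over the 12 libraries was compared with those of 13120 other genes whose normalized counts averaged 100 or more. Likeness was the root mean square difference of standardized log2 values, and the 12 libraries come from 1 tissue and differ in depth together with SD state. The 5 nearest genes were 9830147E19Rik (0.170), Nfat5 (0.181), Ccnt2 (0.197), Zfp646 (0.217) and Bcl11a (0.221). Il1r1 ranked 1757 (0.601), Il18 3026 and Myd88 4049, so many genes followed the pattern of Il1rap more closely than its receptor partner did.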

How the data were processed

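RNA of 12 somatosensory cortex libraries (TruSeq stranded mRNA kit) was analysed, 3 per group. The authors aligned reads with HISAT2 (2.2.1) to mm10 and used DESeq2 (1.31.16). The paper names HTSeq as read counter and the submitters' processing notes name featureCounts. The 5 deposited tables hold, as signal, read counts of 24421 genes divided by a DESeq2 size factor per library, and the authors' fold changes and p-values in them were not used. Undoing the factors, 100% of 732630 values came within 0.01 of a whole read.

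Log2(normalized count + 1) was compared per table with limma (3.58.1, R 4.3.3) using a variance trend, over genes with at least 1 read in the table, with Benjamini-Hochberg adjustment over all of them and a threshold of 0.05. The plan named edgeR only for raw counts, so limma was the main test. The 12 libraries were normalized together by median of ratios for joint levels, the averaged genotype effect and the difference of SD effects. A pseudocount of 1 understates changes of low genes. Residual degrees of freedom were 4 per table and 8 in the joint fit.

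The members, lists and tests were chosen with earlier results of these data known. Named were all 10 members, up to 4 called genes with the smallest adjusted p per list and comparison, and the 5 genes most like Il1rap. Alternatives were a mean of at least 10, a pseudocount of 10, DESeq2 (1.42.0) and edgeR (4.0.16) on recovered reads, all groups in a joint fit, a term for libraries with Xist reads, thinning to 26504840 reads (seed 1), a block for the replicate number, and single libraries left out. A simulation with 200 changed genes tested the scripts. Annotation was GENCODE M21 (GRCm38), and promoters were RefSeq's. A protein table was not used here. No 100-base stretch of the members' transcripts was shared with another gene, except 0.11% of Irak1. Members overlapped genes on the other strand over 0% to 11.3% of exon bases. Libraries of a group differed by more than sampling noise. Python 3.11.15 with NumPy 2.4.6, pandas 2.3.3, SciPy 1.17.1 and matplotlib 3.10.9 served for tables and figures.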

Additional observations from a re-analysis of the deposited data

How the results depend on the processing

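Over the 10 genes, the 7 comparisons and all alternatives, no called fold change turned its sign in 164 fits, and 79 of 875 fits of uncalled ones did. Of the called ones, 68 of 80 fits kept the call under the settings other than the block and left-out libraries, and 44 of 72 did with a library left out. Where a group keeps 2 libraries, the spread is pooled over both groups. The cause of lost calls was not tested. Low counts limit Il1a, Il1b and Il1rn, and the greater depth after SD was addressed by thinning alone. DESeq2 called more genes between genotypes than limma (104 against 4 undisturbed, 99 against 3 after SD, 272 against 72 averaged, where the block gave 4 and left-out libraries 25 to 121), including Il33 undisturbed and Aim2 averaged, so the count of pathway genes called was 1 in each instead of 0.

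Counts of the 10 genes past the threshold were 3 with the Xist term in wild-type mice after SD (5 in the report) and 2 after thinning in AcPb-/- mice (4 in the report). With a library left out they ranged from 1 to 4 in wild-type mice, with 1 without CTL-WT replicate 02, 2 without SD-WT replicate 01 or 02 and 3 without CTL-WT replicate 03. In AcPb-/- mice they ranged from 2 to 3, with 2 without CTL-AcPbKO replicate 04 or SD-AcPbKO replicate 03 or 04. Over all genes, calls then ranged from 2699 to 6222 in wild-type mice, from 3393 to 5412 in AcPb-/- mice, and between genotypes from 0 to 168 undisturbed and 0 to 4 after SD. Pathway genes called ranged from 7 to 15 in wild-type mice, from 4 to 12 in AcPb-/- mice and from 6 to 9 in AcPb-/- mice after SD against undisturbed wild-type mice.

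Libraries were not treated as paired, since groups share 1 or 2 replicate numbers and same-numbered libraries deviated with correlations of -0.427 to 0.231 over 16062 genes. A fit with a replicate block left 0 of the 10 genes and 0 pathway genes called in wild-type mice, in AcPb-/- mice and in AcPb-/- after SD against undisturbed wild-type mice, and 0 genes of any kind in these tables. It has 1 residual degree of freedom per table, and its log2 fold changes stayed of the same sign for the called genes. They were 0.33 for Il1rap and 0.79 for Il1r1 in wild-type mice, and 0.25 and 0.91 in AcPb-/- mice. Some were smaller than in the main fit (Il1rap in AcPb-/- mice 0.25 against 0.32, Myd88 in wild-type mice 0.32 against 0.40) and others were larger. For the comparison of genotypes in undisturbed mice alone, no block was fitted, because its 2 groups share a single replicate number. The block turned log2 values near 0, to 0.054 for Irak1 in wild-type mice, 0.014 for Il1a in AcPb-/- mice, and, for the difference of SD effects, -0.029 for Il1rap and 0.095 for Il1r1.

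Other values that changed sign reached 0.22 in size (Il1a with SD in AcPb-/- mice, without SD-AcPbKO replicate 02). The Xist term gave -0.032 for Irak4 in wild-type mice, and -0.00559 for Il1b and -0.031 for Irak4 in AcPb-/- mice. Thinning gave Il1b -0.10 with SD in AcPb-/- mice and -0.14 between genotypes after SD, and -0.048 for the interaction of Myd88. With a library left out, log2 fold changes with SD ranged in wild-type mice from -0.0024 to 0.40 for Il1a, -0.076 to 0.038 for Irak1 and -0.056 to 0.25 for Irak4, and in AcPb-/- mice from -0.28 to 0.22 for Il1a and -0.18 to 0.14 for Il1b. Between genotypes Il1a ranged from -0.097 to 0.37 undisturbed and from -0.38 to 0.12 after SD, where Il1b ranged from -0.19 to 0.39. The interaction ranged from -0.0060 to 0.070 for Il1rap and from -0.15 to 0.11 for Il1r1.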
